A study of Mus musculus with 8 samples.

Results

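The genes described here are the ligands and receptors that steer growing axons: ephrins and their Eph receptors, semaphorins with plexins and neuropilins, Slits with Robos, and netrins with Dcc and the Unc5 receptors. They were chosen by symbol among the protein-coding genes of the deposited expression table, which gave 68 of 78317 genes. The symbols taken were those of ephrins A and B, their Eph receptors, semaphorins, plexins, both neuropilins, Slit1 to Slit3, Robo1 to Robo3, Ntn1 to Ntn5, Dcc and Unc5a to Unc5d, so relatives with other symbols are not included. Expression was measured by sequencing of polyadenylated RNA from the basilar membrane, on which the sensory epithelium of the cochlea with its hair cells and supporting cells sits, in mice at postnatal day 6. The homo group holds 4 libraries whose genotype label is a conditional knockout of Dnajc17, and the hete group holds 4 libraries whose genotype label is wild type although their titles read hete, so it is not settled by the labels whether the hete animals carry a mutant allele. The study's title names Dnajc17 as a regulator of splicing in hair cells that hearing requires. Which cells the deletion was driven in, which exons it removed and whether each library is a separate animal are not stated in the labels. All p-values therefore rest on library-to-library spread, part of which may be technical. Each library was made from 1 µg of total RNA.

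Guidance ligands act on receptors at the tip of the growing axon and turn it towards or away from their source. Ephrin-A ligands are anchored to the membrane by a lipid and bind mainly EphA receptors, while ephrin-B ligands span the membrane, bind mainly EphB receptors and can signal back into the cell that carries them. Secreted class 3 semaphorins bind neuropilins and signal through plexins, and most other semaphorins are membrane proteins that bind plexins directly. Slits repel axons through Robo receptors, and netrins attract through Dcc or repel through Unc5 receptors. In the cochlea, Epha4 and Sema3f with Nrp2 are known to shape where the axons of spiral ganglion neurons run and which hair cells they reach. Many of these genes are also made by epithelia, mesenchyme and blood vessels, so a level in this tissue is not a level in axons.

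Values are TPM (transcripts per 1000000), which the authors scaled by transcript length, so levels of different genes can be compared within a library. TPM keeps no record of read numbers, and the depth of the libraries is unknown here. The libraries listed 28159 to 28969 genes above 0. Dnajc17 itself stood at 18.0 to 31.1 TPM in homo and 22.1 to 26.5 TPM in hete (log2 difference 0.07, adjusted p = 0.969 by limma-trend). That is a sum over the whole gene and all cells and cannot reveal a lost exon. Hair cell markers were present and 13 of 14 averaged at least 1 TPM, Atoh1 being the exception. Of these 13, 3 had an unadjusted p under 0.05 (limma-trend), against 6.05% of all tested genes. These were Otof, Chrna9 and Ocm, all lower in homo, and no hair cell marker changed after adjustment. Homo and hete values overlapped for all 13. Of the hair cell markers tested, 2 were higher and 11 lower in homo, with a median log2 fold change of -0.15. Their summed level was 235 to 310 TPM in homo and 301 to 502 TPM in hete, and 177 to 194 TPM in homo and 183 to 225 TPM in hete without Ocm, the highest of them. Supporting cell markers summed to 7248 to 7556 TPM in homo and 6384 to 7065 TPM in hete, and none of the 15 averaged under 1 TPM. Without Tectb, the highest of them, the sums overlapped, at 2534 to 2782 TPM in homo and 2411 to 2706 TPM in hete, and the median log2 fold change of the 15 genes was 0.05, with 4 lower. Homo and hete values did not overlap for 4 of the 15, where 3.99% of all 17811 tested genes did not. These were Tectb, Tecta, Otog and Jag1, all higher in homo. The same 4 had an unadjusted p under 0.05 (limma-trend), against 6.05% of all tested genes, and none changed after adjustment. Markers of mesenchyme, macrophages, and bone and cartilage overlapped between homo and hete in their summed level. Hete replicate 1 stood apart from the other libraries for the guidance genes.

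Together the 68 guidance genes summed to 1365, 1282, 1334 and 1251 TPM in homo replicates 1 to 4, against 1142, 1286, 1292 and 1417 TPM in hete replicates 1 to 4. The lowest and the highest sum both fell in the hete group. Hete replicate 1 held the lowest value of 37 of the 62 members that were tested, or 59.7%, where it held the lowest value of 24.9% of all 17811 tested genes, and it held the highest value of none. Hete replicate 4 held the highest value of 20 members, or 32.3%, against 22.3% of all tested genes. Genes with tied extremes were counted for no library. All members are protein-coding, and among 14063 tested protein-coding genes 28.4% were lowest in hete replicate 1 and 22.8% highest in hete replicate 4. The median deviation of the tested members from their own mean over the 8 libraries was -0.19 in hete replicate 1 and 0.07 in hete replicate 4 on the log2(TPM + 1) scale, and between -0.04 and 0.05 in the homo libraries. The standard deviation was larger in hete than in homo for 43 of the 62 members (69.4%, against 54.9% of all tested genes).

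**Figure D1:**
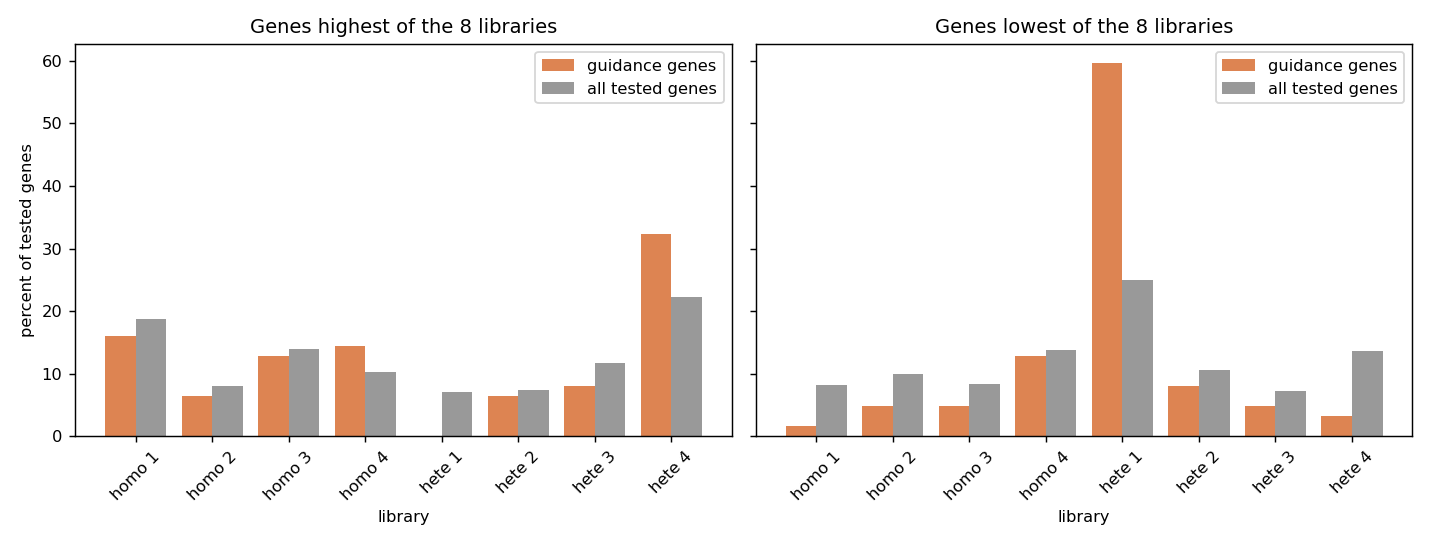
For each library, the percent of tested genes whose highest value (left) or lowest value (right) of the 8 libraries lay there, for the 62 tested guidance genes (orange) and for all 17811 tested genes (grey), with homo libraries left of hete. Hete replicate 1 holds 59.7% of the lowest values of guidance genes, against 24.9% for all tested genes.

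Transcript length moved with the extremes in both hete libraries, and base composition mainly with the lowest values in hete replicate 1. By the longest transcript of each gene in GENCODE M21, the guidance genes had a median length of 5066 bases and a median GC content of 56%, against 3425 bases and 49.9% over 14063 tested protein-coding genes. The share of protein-coding genes with their lowest value in hete replicate 1 was 14.6% in the shortest of 4 equal classes of length and 38.3% in the longest. It was 18.3% in the poorest of 4 equal classes of GC content and 36.1% in the richest. Among 2851 genes both longer and richer in GC than the median, 46.8% had their lowest value in hete replicate 1, and among the 31 guidance genes of that kind, 64.5% did. For hete replicate 4, the share of genes with their highest value was 13.8% in the shortest class and 34.7% in the longest, but 20.2% in the class poorest in GC and 24.7% in the richest. It was 34.9% among the long and GC-rich genes and 38.7% among the 31 guidance genes of that kind. The part of length and base composition in the pattern was not tested beyond these shares.

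**Figure D2:**
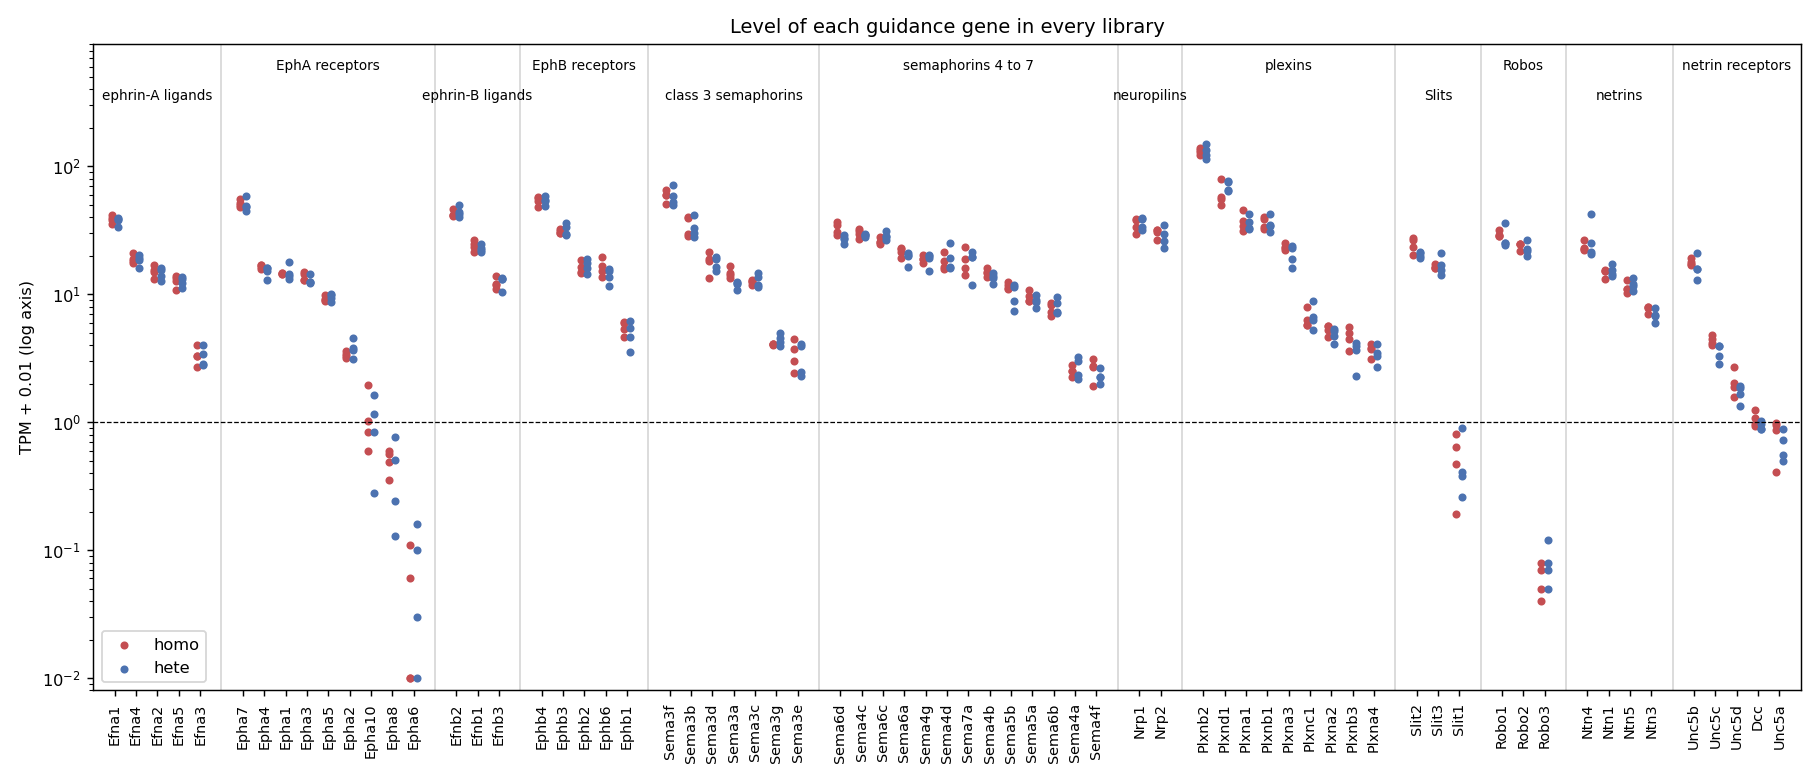
TPM of the 68 guidance genes in every library on a log axis, with 0.01 added so that values listed at 0 can be drawn; red points are the 4 homo libraries, blue points to their right the 4 hete libraries, and the dashed line marks 1 TPM. The levels span a wide range, led by Plxnb2 at a mean of 130 TPM, while homo and hete points of a gene lie close together.

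The basilar membrane held a broad set of these genes. Of the 68 members, 23 averaged at least 20 TPM over the 8 libraries, 28 averaged 5 to 20 TPM, 11 averaged 1 to 5 TPM and 6 averaged less than 1 TPM. The tested members had a median of 16 TPM, against 14.1 TPM over all tested genes. The 6 genes below 1 TPM were Dcc, Unc5a, Slit1, Epha8, Robo3 and Epha6, with means of 0.988 to 0.0513 TPM, and they were left out of the tests. The netrin receptor Dcc, just outside the limit, ranged over 0.93 to 1.24 TPM in homo and 0.87 to 1.01 TPM in hete. The receptor Epha10, which lacks kinase activity, lay just inside at 1.03 TPM; its mean was 1.09 TPM in homo and 0.968 TPM in hete, so it was kept through its homo values.

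Whether these genes differ between homo and hete was asked in a limma fit across all 17811 tested genes. No member changed at an adjusted p under 0.05, where 2 of all tested genes did (0.0112%), and the smallest adjusted p of a member was 0.687. At an unadjusted p under 0.05 there were 3 members (4.84% of those tested), all higher in homo, against 6.05% of all tested genes. With quantile normalization there were 5, of which Sema6c was lower in homo, and the matching share of all tested genes is not given here. Homo and hete values did not overlap for 2 members (3.23%), against 3.99% of all tested genes; both lay higher in homo, a direction found for 2.58% of all tested genes. In the fit without quantile normalization, these shares are near or below the background. Of the 62 tested members, 42 were higher and 20 lower in homo, with a median log2 fold change of 0.04, against 0.02 over all tested genes, of which 56.3% were higher. Without hete replicate 1 the split was 30 higher of 63 tested (47.6%, against 49.1% of all tested genes), and the median was -0.01, against -0.00 over all genes. That library was picked because these genes are low in it, so leaving it out had to lower the count. Without hete replicate 4 the split was 48 higher of 62 (77.4%, against 60.6% of all tested genes), with a median of 0.08, against 0.03.

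The data also bound, gene by gene, how large a difference in the whole tissue could have gone unseen on the log2(TPM + 1) scale. A difference confined to some of the cells is diluted there and is not bounded. The log2 fold changes of the members ran from -0.23 to 0.33, and for 54 of the 62 the 95% interval lay wholly between -0.5 and 0.5, a 1.41-fold difference either way, as it did for 69.7% of all tested genes. For all 62 the interval lay within a 2-fold difference of TPM + 1, with outer bounds of -0.61 and 0.71. Because 1 was added to each TPM before taking logs, the fold of a low gene is understated, and so are its bounds. In whole tissue, fewer cells of a type and less RNA per cell cannot be told apart.

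**Figure D3:**
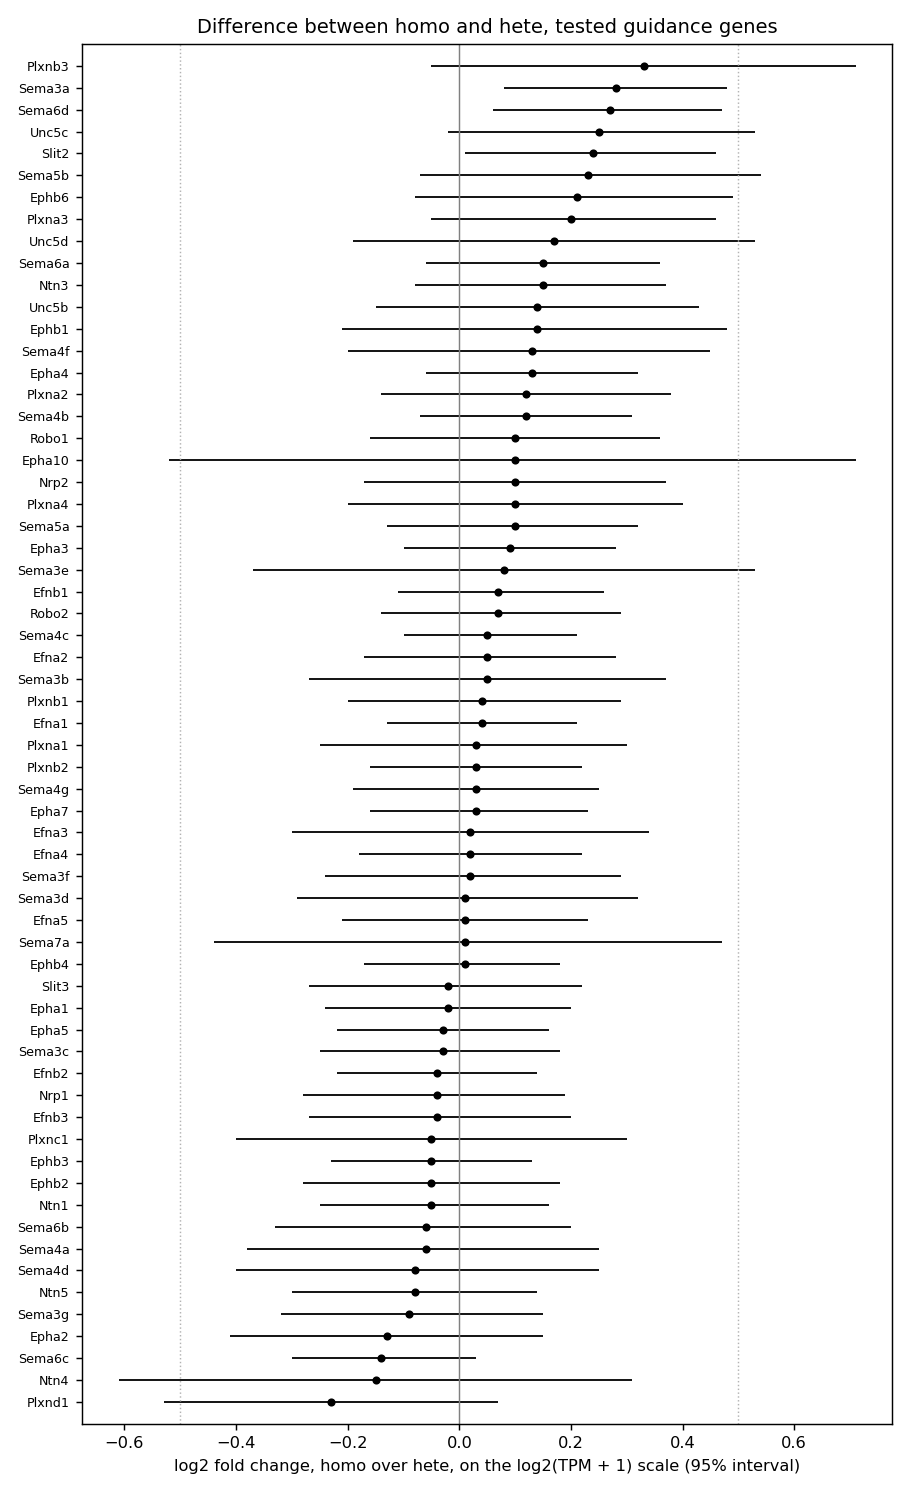
Log2 fold change of homo over hete for the 62 tested guidance genes, ordered from high (top) to low, with 95% intervals from the limma fit; dotted lines mark -0.5 and 0.5. The values run from 0.33 for Plxnb3 to -0.23 for Plxnd1, and 3 intervals, those of Sema3a, Sema6d and Slit2, lie wholly above 0.

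The promoters of the members with the smallest p differ widely in base composition. RefSeq promoters on GRCm38.p6, matched by symbol, were found for 58 of the 68 genes, 74 promoters in all, and the 250 bases before each start were read. The 4 genes printed are those with the smallest p, 3 of them with an unadjusted p under 0.05 and Unc5c next in order; all lie on the plus strand. Capitals mark CG pairs, the sites of DNA methylation, which are dense in the promoters of many developmental genes.
Sema3a (chr5:13396534-13396783): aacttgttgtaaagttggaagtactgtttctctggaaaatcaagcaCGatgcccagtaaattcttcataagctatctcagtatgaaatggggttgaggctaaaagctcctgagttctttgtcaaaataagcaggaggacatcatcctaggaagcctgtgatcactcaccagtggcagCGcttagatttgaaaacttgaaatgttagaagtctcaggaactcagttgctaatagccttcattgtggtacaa
Sema6d, first start (chr2:124089719-124089968): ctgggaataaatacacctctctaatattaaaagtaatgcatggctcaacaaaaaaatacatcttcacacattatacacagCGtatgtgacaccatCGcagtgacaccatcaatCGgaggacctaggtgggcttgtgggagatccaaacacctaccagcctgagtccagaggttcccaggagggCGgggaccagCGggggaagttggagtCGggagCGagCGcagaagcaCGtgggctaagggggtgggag
Sema6d, second start (chr2:124653331-124653580): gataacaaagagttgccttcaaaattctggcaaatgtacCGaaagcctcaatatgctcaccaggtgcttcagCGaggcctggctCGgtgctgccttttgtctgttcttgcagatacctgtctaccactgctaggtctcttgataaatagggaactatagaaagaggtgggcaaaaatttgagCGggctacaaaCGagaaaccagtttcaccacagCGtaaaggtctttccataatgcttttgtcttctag
Slit2 (chr5:47982905-47983154): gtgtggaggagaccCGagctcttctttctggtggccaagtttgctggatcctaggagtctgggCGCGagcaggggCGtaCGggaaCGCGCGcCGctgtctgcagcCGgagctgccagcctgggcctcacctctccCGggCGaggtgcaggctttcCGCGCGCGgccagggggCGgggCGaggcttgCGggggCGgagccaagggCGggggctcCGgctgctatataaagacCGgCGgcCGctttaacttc
Unc5c (chr3:141465314-141465563): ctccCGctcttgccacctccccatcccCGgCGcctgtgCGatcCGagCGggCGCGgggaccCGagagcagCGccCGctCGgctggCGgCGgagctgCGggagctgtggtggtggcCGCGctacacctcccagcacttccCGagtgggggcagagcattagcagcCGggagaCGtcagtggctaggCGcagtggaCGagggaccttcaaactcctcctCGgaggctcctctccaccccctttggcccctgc
The Sema3a window held 2 CG pairs at a GC content of 40.8%, while that of Slit2 held 25 at 69.6% and that of Unc5c held 23 at 71.2%. The windows of Sema6d held 9 and 6 CG pairs. GGGCGG, the GC box, was found on either strand 3 times before Slit2, once before the first start of Sema6d, and not in the windows of Sema3a, Unc5c or the second start of Sema6d. TATAAA was found once, before Slit2.

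Across all 74 promoters of guidance genes, 53 (71.6%) held GGGCGG on either strand, against 32.7% of 32851 promoters of all genes, and 2 (2.7%) held TATAAA on either strand, against 12.4%. CANNTG, the E-box, which reads alike on both strands, stood in 47.3% of the guidance promoters and 66.2% of all. The ratio of observed to expected CG pairs was at least 0.6 in 51.4% of guidance promoters, against 34% of all. It was so in 3 of 4 promoters of genes under 1 TPM, in 48.8% of those of genes with 1 to 20 TPM and in 51.9% of those of genes with at least 20 TPM. These are counts of letters in the window and say nothing of which factors bind there. They were not matched for GC content, whose median was 64.4% in guidance promoters and 52.4% in all promoters. Nor was the set of all promoters limited to protein-coding genes or to genes found in this tissue.

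Among ephrins and Eph receptors, homo and hete values overlapped for every tested gene. The 5 ephrin-A genes were led by Efna1, with 39.0, 38.02, 41.81 and 35.23 TPM in homo replicates 1 to 4, against 33.46, 38.61, 39.54 and 38.13 TPM in hete replicates 1 to 4. Efna2 had the smallest p of the ephrin-A genes and a log2 fold change of 0.05 (SE 0.10; limma-trend, adjusted p = 0.962). It had 16.82, 14.79, 15.40 and 13.15 TPM in the homo libraries and 12.71, 15.95, 13.86 and 15.35 TPM in the hete libraries, each in the order of replicates 1 to 4. All 5 ephrin-A genes had log2 fold changes between 0.01 and 0.05, and homo and hete values overlapped for each. Efna3, at 3.27 TPM, was the lowest of them.

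Their receptors were led by Epha7, with 47.94, 49.64, 54.98 and 51.59 TPM in homo replicates 1 to 4, against 48.90, 44.97, 47.54 and 58.61 TPM in hete replicates 1 to 4, which alone made up 46.6% of the summed level of the 9 EphA genes. Epha4, which binds ephrins of both classes, had 17.01, 16.85, 16.26 and 15.64 TPM in homo replicates 1 to 4, against 12.90, 15.91, 15.88 and 15.12 TPM in hete replicates 1 to 4. The homo values lay in the upper part of the hete range and above it, with hete replicate 1 the lowest, and the log2 fold change was 0.13 (SE 0.08; limma-trend, adjusted p = 0.87), and 0.07 without that library. Epha2 was among the 5 members furthest below 0, at -0.13 (SE 0.12; limma-trend, adjusted p = 0.911), with 3.56, 3.26, 3.37 and 3.14 TPM in the homo libraries and 3.11, 4.55, 3.78 and 3.62 TPM in the hete libraries, each in the order of replicates 1 to 4. The groups overlapped, hete replicate 1 was again the lowest and hete replicate 2 the highest, and the log2 fold change was -0.20 without hete replicate 1 and -0.05 without hete replicate 2. Epha1, Epha3 and Epha5 averaged 14.6, 13.3 and 9.31 TPM, with log2 fold changes between -0.03 and 0.09.

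Efnb2, a ligand of Ephb4 in blood vessels and many epithelia, was the highest ephrin. It had 46.34, 41.32, 41.48 and 40.48 TPM in homo replicates 1 to 4, against 42.04, 39.76, 44.02 and 49.45 TPM in hete replicates 1 to 4, with no separation of the groups. Efnb1 had 23.49, 26.25, 24.79 and 21.24 TPM in the homo libraries and 21.31, 22.15, 22.71 and 24.52 TPM in the hete libraries, each in the order of replicates 1 to 4. For Efnb1 the log2 fold change was 0.07 (SE 0.08; limma-trend, adjusted p = 0.929), the smallest p of the ephrin-B genes, and the values interleaved. It was 0.03 without homo replicate 2, 0.13 without homo replicate 4 and 0.11 without hete replicate 4. Efnb3 averaged 12.1 ± 1.2 TPM in homo and 12.5 ± 1.46 TPM in hete (SD, n = 4 each).

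Of the 5 EphB receptors, Ephb4 was the highest, with 53.43, 55.85, 57.61 and 48.31 TPM in homo replicates 1 to 4, against 48.52, 53.21, 53.88 and 58.50 TPM in hete replicates 1 to 4. Its means were 53.8 ± 4.04 TPM in homo and 53.5 ± 4.08 TPM in hete (SD, n = 4 each), and its log2 fold change was 0.01. Ephb6, which like Epha10 lacks kinase activity, had the smallest p of the EphB genes, with 15.25, 16.52, 13.68 and 19.63 TPM in the homo libraries and 11.52, 13.51, 15.16 and 15.62 TPM in the hete libraries, each in the order of replicates 1 to 4. Homo replicate 4 held the highest value and hete replicate 1 the lowest, and the log2 fold change was 0.21 (SE 0.13; limma-trend, adjusted p = 0.87). Leaving out either of these libraries gave 0.12. Ephb3, Ephb2 and Ephb1 averaged 31.2, 16.3 and 5.21 TPM.

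The semaphorins included the members with the smallest p. Sema3a, a secreted repellent that binds neuropilin-1 and whose promoter, printed above, is the poorest in CG pairs of the 5 shown, had 13.29, 14.56, 14.06 and 16.58 TPM in homo replicates 1 to 4, against 10.71, 12.16, 12.48 and 12.01 TPM in hete replicates 1 to 4. The homo values were all higher than the hete values, with a gap between 13.29 TPM in homo replicate 1 and 12.48 TPM in hete replicate 3. The means were 14.6 ± 1.41 TPM in homo and 11.8 ± 0.778 TPM in hete (SD, n = 4 each), and the log2 fold change was 0.28 (SE 0.09; limma-trend, adjusted p = 0.687), with an unadjusted p of 0.011. It ranged from 0.22 to 0.32 when each library was left out in turn, and the lowest came without homo replicate 4, which held the highest Sema3a value and the highest summed level of neuron markers. The part of neuron content in the Sema3a values was not tested.

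The other class 3 semaphorins showed no such separation. Sema3f, a ligand of neuropilin-2, was the highest of them with 59.70, 59.49, 65.43 and 50.13 TPM in homo replicates 1 to 4, against 49.33, 58.51, 52.82 and 71.31 TPM in hete replicates 1 to 4. Sema3g lay a little lower in homo, with 4.01, 4.08, 4.09 and 4.06 TPM in the homo libraries and 3.89, 4.19, 4.53 and 4.92 TPM in the hete libraries, each in the order of replicates 1 to 4, and its log2 fold change was -0.09 (SE 0.10; limma-trend, adjusted p = 0.935). The homo values of Sema3g lay within 0.1 TPM of each other and inside the lower part of the hete range, and the log2 fold change was -0.04 without hete replicate 4. Sema3b, Sema3d, Sema3c and Sema3e averaged 33.7, 17.7, 12.6 and 3.29 TPM, with log2 fold changes between -0.03 and 0.08.

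Sema6d, a membrane semaphorin that binds plexin-A receptors, was the highest of the 13 semaphorins of classes 4 to 7. It had 36.72, 30.38, 34.97 and 28.78 TPM in homo replicates 1 to 4, against 24.50, 26.97, 28.93 and 27.25 TPM in hete replicates 1 to 4. Homo replicate 4 lay below hete replicate 3, so the groups overlapped, while the other homo values lay above all hete values. The means were 32.7 ± 3.74 TPM in homo and 26.9 ± 1.83 TPM in hete (SD, n = 4 each), and the log2 fold change was 0.27 (SE 0.09; limma-trend, adjusted p = 0.72), with an unadjusted p of 0.0154. Sema6d is the only member on chromosome 2, which also carries Dnajc17, and in GENCODE M21 gene order 71 tested genes lie between them. Of the 201 tested genes centred on Dnajc17, Sema6d among them, 33 (16.4%) had an unadjusted p under 0.05, against 8.52% of all tested genes on chromosome 2 and 6.05% of all tested genes. The part of this neighbourhood in the Sema6d value was not tested.

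Sema6c had the smallest unadjusted p (0.0936) of the members that were lower in homo, with 25.63, 27.86, 25.31 and 24.58 TPM in the homo libraries and 26.33, 31.08, 28.12 and 28.57 TPM in the hete libraries, each in the order of replicates 1 to 4. The values overlapped, with 3 of the homo values below the lowest hete value, and the log2 fold change was -0.14 (SE 0.07; limma-trend, adjusted p = 0.87). Sema6a, Sema4c, Sema4d, Sema4g and Sema7a averaged 20.4, 29.4, 18.4, 18.7 and 18.1 TPM. Sema5b, Sema5a and Sema4b had log2 fold changes of 0.23 (SE 0.14), 0.10 (SE 0.10) and 0.12 (SE 0.09), and Sema4a, Sema4f and Sema6b averaged 2.44 to 7.85 TPM. Over the 13 genes, 9 were higher and 4 lower in homo.

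**Figure D4:**
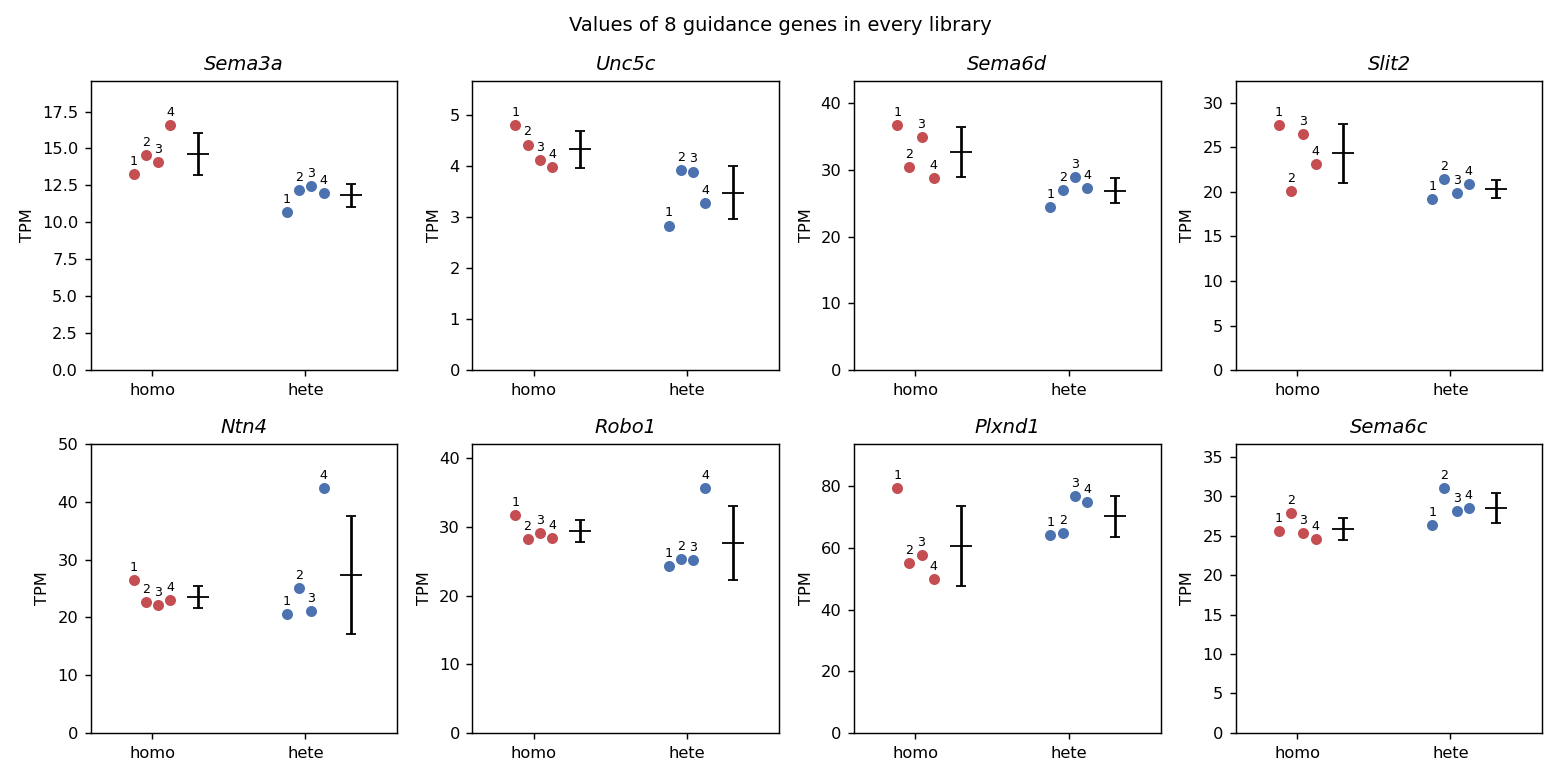
TPM of 8 guidance genes in every library, homo (red) left of hete (blue), with replicate numbers beside the points and black bars for the mean and SD of 4 libraries. Homo and hete values do not overlap for Sema3a and Unc5c, while a single hete library, replicate 4, lies far above the others for Ntn4 and Robo1.

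The 2 most abundant members were plexins, receptors of semaphorins. Plxnb2, a receptor of class 4 semaphorins, had 138.68, 128.97, 132.90 and 123.22 TPM in homo replicates 1 to 4, against 113.36, 132.47, 121.35 and 148.39 TPM in hete replicates 1 to 4, and made up 10% of the summed level of all 68 genes. Plxnd1, a plexin of blood vessels that binds Sema3e, followed with 79.53, 55.10, 57.76 and 49.89 TPM in homo replicates 1 to 4, against 64.32, 64.95, 76.84 and 75.05 TPM in hete replicates 1 to 4. Homo replicate 1 held the highest Plxnd1 value of all 8 libraries and the other 3 homo libraries the 3 lowest. Its log2 fold change was -0.23 (SE 0.13; limma-trend, adjusted p = 0.87), the furthest below 0 among the members, and it was -0.37 without homo replicate 1, with an adjusted p of 0.606, and -0.14 without homo replicate 4. Markers of endothelial cells summed to 409, 362, 393 and 331 TPM in homo replicates 1 to 4, against 341, 353, 410 and 333 TPM in hete replicates 1 to 4, and their part in the Plxnd1 values was not tested.

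Plxnb3, a receptor of Sema5a, had the largest log2 fold change of any member, 0.33 (SE 0.17; limma-trend, adjusted p = 0.87), on low values. It had 5.52, 4.42, 3.59 and 4.94 TPM in homo replicates 1 to 4, against 2.30, 4.17, 3.89 and 3.65 TPM in hete replicates 1 to 4. The groups overlapped, hete replicate 1 was the lowest, and leaving it out gave 0.19. Plxna3 had a log2 fold change of 0.20 (SE 0.12), with hete replicate 1 again the lowest. Plxna1 and Plxnb1 averaged 36.4 and 35.8 TPM, and Plxnc1, Plxna2 and Plxna4 averaged 3.53 to 6.58 TPM.

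Both neuropilins, the ligand-binding partners of the plexins, were well above the median of the members. Nrp1 had 38.34, 33.52, 37.66 and 29.45 TPM in homo replicates 1 to 4, against 31.92, 39.32, 38.75 and 33.27 TPM in hete replicates 1 to 4, and Nrp2 had 31.69, 30.47, 31.62 and 26.68 TPM in the homo libraries and 23.03, 29.40, 26.02 and 34.95 TPM in the hete libraries, each in the order of replicates 1 to 4. The groups overlapped for both. For Nrp2 the log2 fold change was 0.10 (SE 0.12; limma-trend, adjusted p = 0.937), and it was 0.01 without hete replicate 1, 0.06 without hete replicate 3 and 0.20 without hete replicate 4.

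Slit2, a secreted repellent, was the highest Slit and had 27.47, 20.14, 26.44 and 23.14 TPM in homo replicates 1 to 4, against 19.19, 21.45, 19.82 and 20.86 TPM in hete replicates 1 to 4. Homo replicates 1, 3 and 4 lay above all hete values, and homo replicate 2 lay among them. The log2 fold change was 0.24 (SE 0.10; limma-trend, adjusted p = 0.803), with an unadjusted p of 0.0389, and 0.18 without homo replicate 1 (unadjusted p = 0.111). Slit3 averaged 16.4 ± 0.533 TPM in homo and 16.9 ± 2.98 TPM in hete (SD, n = 4 each). Slit1, a Slit of the nervous system, was near the bottom at 0.18 to 0.8 TPM in homo and 0.25 to 0.89 TPM in hete.

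The Slit receptor Robo1 had 31.71, 28.23, 29.04 and 28.38 TPM in homo replicates 1 to 4, against 24.28, 25.25, 25.23 and 35.67 TPM in hete replicates 1 to 4. Hete replicate 4 lay above every other library and hete replicates 1 to 3 below every homo library. Homo over hete was 0.10 (SE 0.12; limma-trend, adjusted p = 0.93) on the log2 scale, and without hete replicate 4 it was 0.23, with an adjusted p of 0.708. It was 0.05 without hete replicate 1 and 0.06 without hete replicate 3 or homo replicate 1. Robo2 averaged 23.8 ± 1.49 TPM in homo and 22.7 ± 2.89 TPM in hete (SD, n = 4 each), and Robo3, a receptor of commissural neurons, was listed at 0.03 to 0.07 TPM in homo and 0.04 to 0.11 TPM in hete.

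Among netrins, Ntn4, a netrin of basement membranes related to laminins, was the highest, with 26.40, 22.61, 22.07 and 22.98 TPM in homo replicates 1 to 4, against 20.62, 25.13, 21.14 and 42.40 TPM in hete replicates 1 to 4. Hete replicate 4 lay far above the other 7 libraries, which spanned 20.62 to 26.40 TPM. On the log2 scale the difference was -0.15 (SE 0.20; limma-trend, adjusted p = 0.944), and without hete replicate 4 its sign turned, at 0.08. It was -0.26 without hete replicate 1 and -0.25 without hete replicate 3. Ntn3 had 7.85, 7.87, 7.84 and 7.0 TPM in the homo libraries and 5.95, 6.69, 6.87 and 7.78 TPM in the hete libraries, each in the order of replicates 1 to 4. Homo replicates 1 to 3 lay within 0.1 TPM of each other and above every hete value, and homo replicate 4 lay among the hete values. On the log2 scale this gave 0.15 (SE 0.10; limma-trend, adjusted p = 0.874), and 0.09 without hete replicate 1. Ntn1, the netrin best known as an attractant, averaged 14.7 ± 1.1 TPM in homo and 15.2 ± 1.42 TPM in hete (SD, n = 4 each), and Ntn5 averaged 11.2 ± 1.13 TPM in homo and 11.9 ± 1.14 TPM in hete (SD, n = 4 each).

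Of the netrin receptors, Unc5b, which is also found in blood vessels, was the highest at 16.87, 19.18, 17.22 and 17.70 TPM in homo replicates 1 to 4, against 12.79, 15.59, 15.62 and 21.0 TPM in hete replicates 1 to 4. Unc5c, a receptor for repulsion from netrin-1, had 4.81, 4.43, 4.12 and 3.98 TPM in homo replicates 1 to 4, against 2.84, 3.93, 3.90 and 3.28 TPM in hete replicates 1 to 4. The groups did not overlap for Unc5c, all homo values being the higher, but homo replicate 4 and hete replicate 2 differed by less than 0.1 TPM. The log2 fold change was 0.25 (SE 0.12; limma-trend, adjusted p = 0.86), and 0.18 without hete replicate 1. Unc5d averaged 2.02 ± 0.471 TPM in homo and 1.68 ± 0.264 TPM in hete (SD, n = 4 each), and Unc5a ranged over 0.4 to 0.97 TPM in homo and 0.49 to 0.88 TPM in hete.

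Markers of neurons, the cells whose axons these genes steer, varied from library to library. Of 18 neuron markers, 17 were tested, and Scn9a averaged under 1 TPM. Of the 17, 15 were higher and 2 lower in homo, with a median log2 fold change of 0.16. An unadjusted p under 0.05 (limma-trend) was found for 3 of them, against 6.05% of all tested genes. These were Syt1, Isl1 and Ntrk3, all higher in homo, and no neuron marker changed after adjustment. Only Syt1 had no overlap between homo and hete, where 3.99% of all tested genes had none. The summed level of the 18 was 613, 616, 502 and 859 TPM in homo replicates 1 to 4, against 451, 684, 647 and 552 TPM in hete replicates 1 to 4. Homo replicate 4 was the highest and hete replicate 1 the lowest. Markers of Schwann and satellite glia, 10 of 12 higher and none averaging under 1 TPM, summed to 1076 to 1994 TPM in homo and 1099 to 1803 TPM in hete. The part of neuron and glia content in the guidance gene values was not tested.

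**Figure D5:**
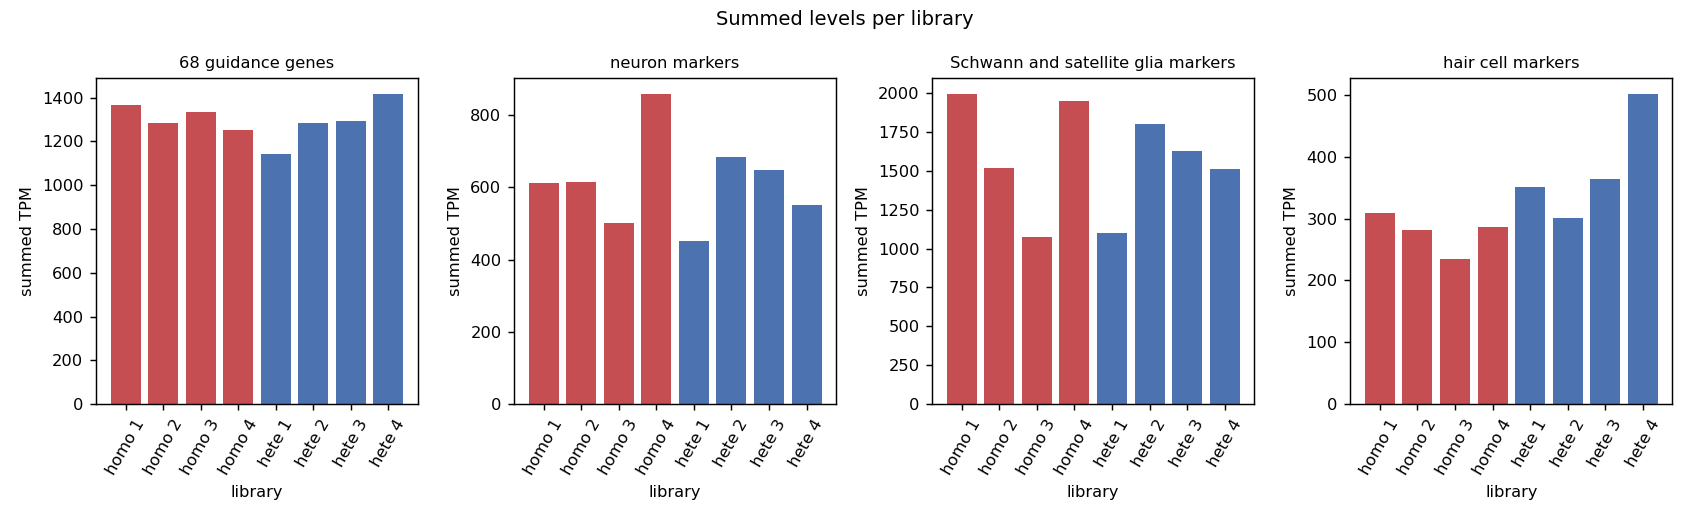
Summed TPM per library of the 68 guidance genes and of the markers of neurons, of Schwann and satellite glia and of hair cells, with the 4 homo libraries (red) left of the 4 hete libraries (blue). Guidance genes are lowest in hete replicate 1 and highest in hete replicate 4, neuron markers highest in homo replicate 4, and hair cell markers highest in hete replicate 4.

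Other genes of axon guidance were read from 2 further lists, neither of which shares a member with the 68. Of 36 genes that act inside the cell downstream of guidance receptors, 35 were tested. Of these, 25 were higher and 10 lower in homo, with a median log2 fold change of 0.06. Over all tested genes, 56.3% were higher in homo, with a median of 0.02. None of the 35 changed or reached an unadjusted p under 0.05 (limma-trend), against 6.05% of all tested genes. Trio, a signalling protein downstream of netrin receptors, had 52.95, 54.91, 61.15 and 53.63 TPM in the homo libraries and 49.15, 48.61, 50.91 and 52.18 TPM in the hete libraries, each in the order of replicates 1 to 4. The lowest homo value of Trio was above the highest hete value, at a log2 fold change of 0.14 (SE 0.06; limma-trend, adjusted p = 0.822). Trio was the only 1 of the 35 without overlap, where 3.99% of all tested genes had none. Dpysl5, a collapsin response mediator, stood at a log2 fold change of 0.25 (SE 0.12) and the kinase Fyn at 0.26 (SE 0.15).

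The other list holds 35 further guidance and axon adhesion genes, of which 33 were tested. Of these, 24 were higher and 9 lower in homo, with a median of 0.07 and no call. The median over all tested genes was 0.02, and 56.3% of all tested genes were higher. Of the 33, 2 did not overlap between homo and hete, where 3.99% of all tested genes did not. An unadjusted p under 0.05 (limma-trend) was found for 2 of the 33, against 6.05% of all tested genes. Nrcam, an adhesion molecule of axons that can act as a partner of neuropilins, had 28.38, 28.38, 27.66 and 29.67 TPM in the homo libraries and 24.02, 27.11, 23.70 and 25.27 TPM in the hete libraries, each in the order of replicates 1 to 4. The groups did not overlap, and the log2 fold change was 0.18 (SE 0.07; limma-trend, adjusted p = 0.745). Flrt2, a repellent ligand of Unc5 receptors, also did not overlap, with 20.60, 22.62, 20.71 and 20.16 TPM in the homo libraries and 17.83, 19.23, 17.88 and 18.96 TPM in the hete libraries, each in the order of replicates 1 to 4. Its log2 fold change was 0.18 (SE 0.07; limma-trend, adjusted p = 0.76). Slitrk2, a synaptic adhesion protein, stood at a log2 fold change of 0.27 (SE 0.14). Dscam and Shh averaged under 1 TPM. In the authors' deposited table of gene ontology terms, 13 of 387 terms had an adjusted p under 0.05; the 60 genes it names include none of the 68, and no term in it names axons or one of these families.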

How the data were processed

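The authors deposited TPM (transcripts per 1000000) per gene and library, rounded to 2 decimals, from stranded mRNA libraries. Tools named per the submitters' processing notes, with neither role nor version, are fastp, HISAT2, StringTie, RSEM and DESeq2, on GRCm39. The authors also deposited gene ontology terms with a p-value each, used as given, and a splicing table without gene names, not used here.

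All 8 libraries entered a limma fit of log2(TPM + 1) with genotype as the only term (version 3.58.1, trend and robust options, R 4.3.3). Tested were the 17811 genes averaging 1 TPM or more, with Benjamini-Hochberg adjustment over all of them and a threshold of 0.05. The fit was tested on simulated data, only with changes larger than that of any member. Members and lists were chosen with earlier results of these data known. Values in every library are given for 25 members: in each family the highest and the one with the smallest p, the 5 largest log2 fold changes each way, and those without overlap. The promoters printed, and the classes of length and GC content, were chosen after values were seen. GENCODE M21 (GRCm38) gave gene order, transcript length and GC content. The alternatives are listed in the closing section. Plots used matplotlib 3.10.9 under Python 3.11.15.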

Additional observations from a re-analysis of the deposited data

Results flagged for a closer look

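Each group of 4 libraries was checked with Dixon's test for a value far from the other 3, for the 25 genes given in every library. Of the 50 groups, 2 were picked out, where chance alone picks about 1 in 20. Robo1 in hete replicate 4 stood at 35.67 TPM, above the 24.28 to 25.25 TPM of the other hete libraries. Ntn3 in homo replicate 4 stood at 7.0 TPM, below the 7.84 to 7.87 TPM of the other homo libraries.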

How the results depend on the processing

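No guidance gene changed under any of the 7 other settings or without any of the 8 libraries, and the smallest adjusted p of the 17 genes with a fold change followed through them was 0.606. The settings were quantile normalization, TPM rescaled over nuclear protein-coding genes, no filter on low values, a filter of 5 TPM in 4 libraries, a pseudocount of 0.1, eBayes without the robust option, and the replicate number as a block. Over all tested genes, the number changed was 2, but 1 with no filter on low values, 1 with the replicate block, 3 with the filter of 5 TPM in 4 libraries, and 1 to 5 when a library was left out (1 without homo replicate 2, homo replicate 3 or hete replicate 1, 4 without homo replicate 1 or 4, and 5 without hete replicate 3). The cause was not tested. The number of guidance genes higher in homo was 37 of 62 with quantile normalization, 42 with the replicate block, and 30 to 48 without a library; their median log2 fold change was then -0.01 to 0.08. Replicate numbers are only numbers here: deviations of same-numbered libraries correlated at -0.084, -0.026, 0.049 and 0.008, and with the replicate block 2 guidance genes had an unadjusted p under 0.05, against 3 without it and 5 with quantile normalization. The matching shares of all tested genes under the replicate block and quantile normalization are not given here. All 115 log2 fold changes under the other settings kept their sign. Marker sums without the highest gene of a list were added after the data were seen. Leaving out a library turned the sign for 2 genes, Ntn4 (range -0.26 to 0.08) and Efna2 (-0.00 to 0.11). Read numbers are not in the TPM values, so what depth limits could not be computed.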
